A study of Homo sapiens with 12 samples.

Results

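Hepatocyte identity genes are the genes whose products define the mature liver cell: the plasma proteins it secretes, the enzymes of its metabolism, the receptors and transporters of its surface and the transcription factors that switch these on. From the 58735 genes of a table of RNA levels in HepaRG cells, 43 such genes were taken by name. They comprised 16 secreted proteins, 13 metabolic enzymes, 5 surface receptors and transporters and 9 transcription factors, and each was found once in the table. HepaRG is an established human hepatic cell line with a wild-type genotype per the labels, whose cells can take on hepatocyte-like and bile duct-like states in culture. Levels were given as FPKM, fragments scaled to gene length and to a size set for each library, so that levels of different genes can be set side by side.

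The 12 libraries fell into 4 groups of 3. Control cells were left untreated for 4 h. The PA group had 400 µM palmitate, a saturated fatty acid carrying deuterium, for 4 h, and the PA+OA group had the same palmitate with 200 µM oleate, a monounsaturated fatty acid, for 4 h. The PA+BMS group was given 50 µM BMS-309403, which blocks FABP4, a lipid chaperone, over 24 h, with 400 µM palmitate for 4 h. No group with oleate or BMS-309403 alone is among the libraries used here, so both are seen only on top of palmitate. The state of differentiation of the culture is not given in the sources used here. All groups are of 1 cell line, and replicates are not called separate cultures in the labels, so p-values measure only a spread between libraries that may be technical.

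In the liver, hepatocytes release albumin, apolipoproteins, clotting factors and iron carriers into the blood, detoxify drugs through cytochromes P450, turn ammonia into urea, and make bile acids. These programmes are kept on by a network of factors, among them HNF4A, the C/EBP proteins and the FOXA proteins, which bind each other's genes as well as the genes of the secreted proteins and enzymes. Nuclear receptors such as FXR, PXR and CAR, encoded by NR1H4, NR1I2 and NR1I3, tune the same genes to bile acids and foreign compounds.

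The whole reads behind the FPKM values summed to between 16059128 and 19971190 per library. The deposited scale did not follow these totals. For ALB, 3 reads were worth 0.0586 FPKM in PA+OA replicate 1, with 18321315 reads in all. They were worth 0.0469 in PA+OA replicate 3, with 18323473 reads, and 0.0431 in PA+BMS replicate 1, with 18285099. The library size behind the FPKM is not given in the sources used here. Of all genes, 11856 reached 1 FPKM in at least 3 of the 12 libraries and were tested, while 28039 had no read in any library. The first principal component of the tested genes held 54.4% of their variance, and along it the libraries farthest from their own groups were PA+OA replicate 1 (54.6) and PA+BMS replicate 3 (-51.5). For the 4 tested genes the fits without these libraries are among the alternatives below. With library totals set equal, the median log2 change over all genes moved from 0.03 to -0.11 in PA against control and from -0.04 to 0.16 in PA+BMS against PA. The split of called genes moved with it, from 1518 higher and 1754 lower to 840 and 2480 in PA against control, from 2982 and 3481 to 4169 and 1773 in PA+BMS against PA, and from 2075 and 2232 to 1578 and 2764 in PA+OA against control.

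Most hepatocyte identity genes were silent or nearly so in every group. Of the 43 genes, 8 had no read in any of the 12 libraries, 31 had reads but stayed under 1 FPKM in every library, and 4 reached 1 FPKM, in each case in all 12 libraries. Those 4 were CPS1, the mitochondrial enzyme that starts the urea cycle, HPD, an enzyme of tyrosine breakdown, CEBPA, the transcription factor C/EBP-alpha, and FOXA1, a pioneer factor that opens liver enhancers. They held 99.8% of the 264665 reads counted for all 43 genes. Of the others, 26 had between 1 and 12 reads over all libraries together, and 29 of the 43 never had more than 3 reads in a library, which is taken here as the floor of a level. No gene fell between these classes by reaching 1 FPKM in only 1 or 2 libraries.

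**Figure D1:**
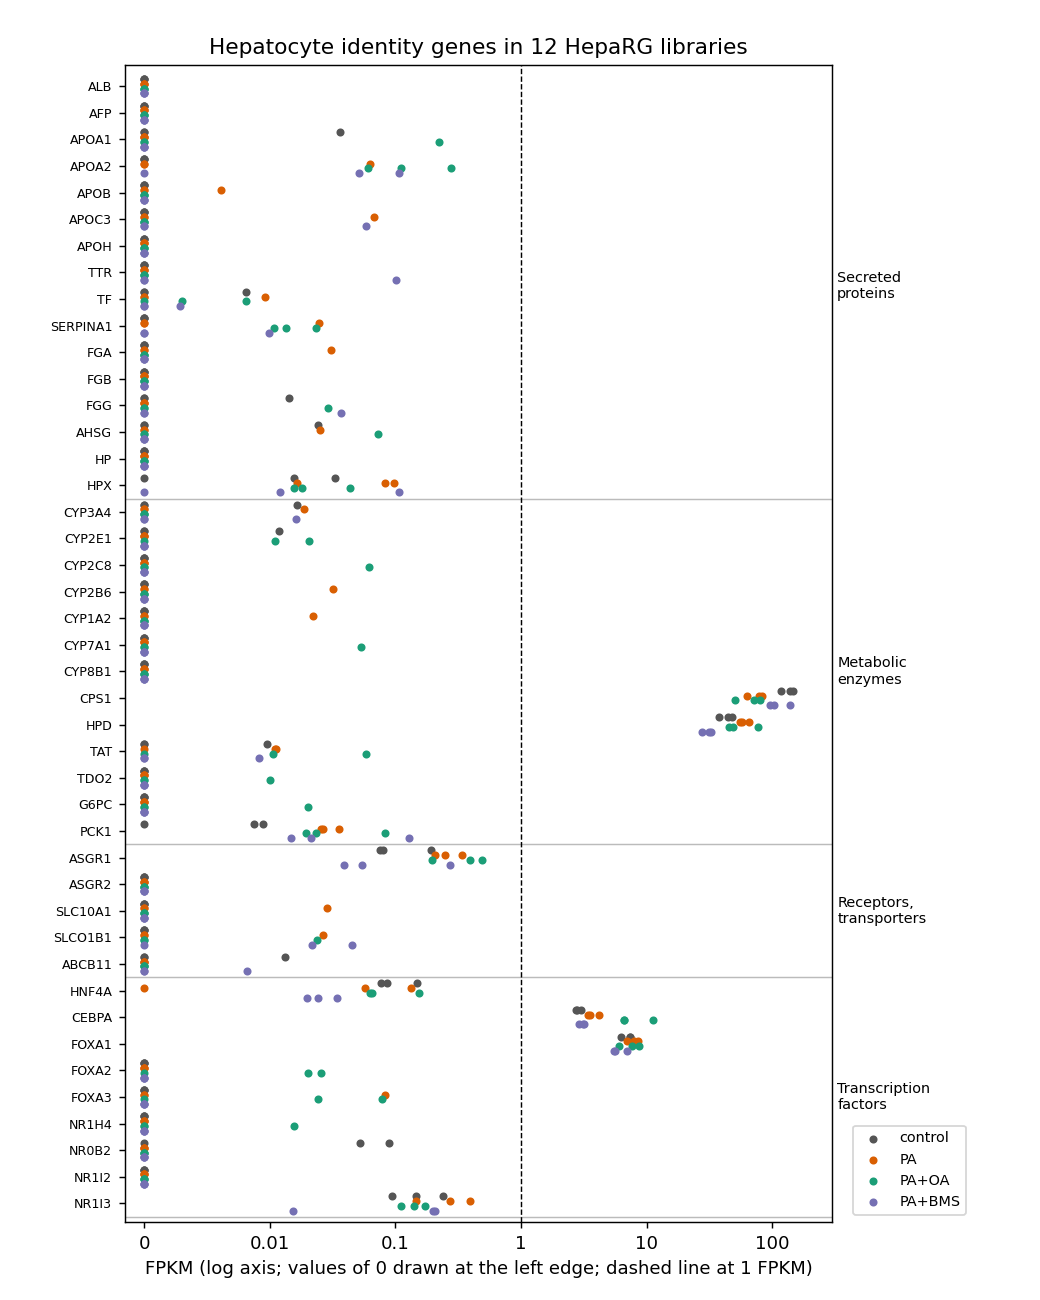
Level of each of the 43 hepatocyte identity genes in each of 12 libraries, in FPKM on a log axis, coloured by group and ordered by role, with libraries without a read at the left edge and a dashed line at 1 FPKM. CPS1, HPD, CEBPA and FOXA1 lie right of the line in all 12 libraries, and the other 39 genes lie left of it in every library.

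Secreted proteins were nearly without reads. None of the 16 was tested, 5 had no read, and the 16 together had 87 reads over 12 libraries, a median of 3.5 reads per gene. ALB, which encodes albumin, the most abundant protein of plasma (ENSG00000163631, chromosome 4, 73397114 to 73421412 on GRCh38), had no read, and the level of 3 reads, the least counted as a level here, was at most 0.0586 FPKM. Its neighbour AFP, the fetal counterpart of albumin, also had none, with a 3-read level of at most 0.0607 FPKM. The same held for APOH, a phospholipid-binding plasma protein, FGB, the fibrinogen beta chain, and HP, haptoglobin, which binds free haemoglobin. Their 3-read levels were at most 0.149, 0.0731 and 0.0366 FPKM. These limits cover counting error only. The other fibrinogen chains were little different, with 2 reads of FGA and 6 of FGG.

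Among apolipoproteins, APOA1 and APOA2, the main proteins of high-density lipoprotein, had 7 and 11 reads, APOC3, which slows triglyceride clearance, had 2, and APOB, the scaffold of very-low-density lipoprotein, had 1. TF, transferrin, had 12 reads, SERPINA1, alpha-1-antitrypsin, had 7, AHSG, fetuin-A, had 5, and TTR, a carrier of thyroxine and retinol, had 5, all in 1 library. HPX, hemopexin, a carrier of haem, had the most reads of the secreted proteins, 29 over 10 libraries, with a highest level of 0.107 FPKM. APOA2, a short gene whose few reads weigh more per kilobase, had the highest level of the role in any library, 0.279 FPKM from 4 reads in PA+OA replicate 1. All 3 control libraries had no APOA2 read. The PA+OA libraries had 0.279, 0.0602 and 0.112 FPKM, the PA libraries 0.0633, 0 and 0, and the PA+BMS libraries 0.0514, 0 and 0.107, from 1 to 4 reads where there were any.

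Metabolic enzymes were split between 2 high genes and 11 very low ones. CPS1 had 232830 and HPD 22600 of the role's 255514 reads, and the median enzyme had 3 reads in all. CPS1 averaged 97.4 FPKM over the 12 libraries, which ranked it 443 of 58735 genes, and HPD averaged 47.7 FPKM, rank 993. The drug-metabolizing cytochromes were close to empty, with 3 reads each of CYP3A4 and CYP2C8, 2 of CYP2B6, 1 of CYP1A2 and 7 of CYP2E1. CYP7A1, the rate-limiting enzyme of bile acid synthesis, had 3 reads, all in 1 library, and CYP8B1, which sets the share of cholic acid, had none. TAT, the first enzyme of tyrosine breakdown, had 11 reads, and TDO2, which opens tryptophan breakdown, had 1. Of the enzymes of glucose output, G6PC had 1 read and PCK1 had 52, with a highest level of 0.129 FPKM. In the tyrosine pathway, then, HPD was present at 47.7 FPKM while the step before it, TAT, reached at most 0.0585 FPKM in any library.

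Surface receptors and transporters had 181 reads in all, of which ASGR1 held 172. ASGR1 and ASGR2 encode the 2 chains of the asialoglycoprotein receptor, which clears desialylated glycoproteins from blood. ASGR2 had no read in any library, with a 3-read level of at most 0.0795 FPKM, whereas ASGR1 had reads in all 12 libraries and averaged 0.216 FPKM. SLC10A1, the sodium-dependent bile acid uptake carrier, had 1 read, SLCO1B1, an organic anion uptake carrier, had 5, and ABCB11, the bile salt export pump, had 3.

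Transcription factors had the largest share of genes with a measurable level. Beside CEBPA and FOXA1, at 4.45 and 7.10 FPKM over the 12 libraries (ranks 6642 and 5180), HNF4A and NR1I3 reached 0.1 FPKM in at least 3 libraries. At that lower mark the count was 4 of 9 factors, against 1 of 16 secreted proteins, 2 of 13 enzymes and 1 of 5 receptors and transporters. The 1 secreted protein was APOA2, on libraries with 4, 2 and 2 reads. By the floor of 3 reads the roles were closer. Genes that never passed it were 5 of 9 factors, 11 of 16 secreted proteins, 9 of 13 enzymes and 4 of 5 receptors and transporters. The difference between roles was not tested. The 3 FOXA genes, which encode closely related factors, were far apart: FOXA1 had 6146 reads, FOXA2 had 2 and FOXA3 had 7. Among nuclear receptors, NR1I2 had no read, NR1H4 had 1, and NR0B2, a repressor that bile acids induce through FXR, had 3. HNF4A had 109 reads and averaged 0.0715 FPKM.

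**Figure D2:**
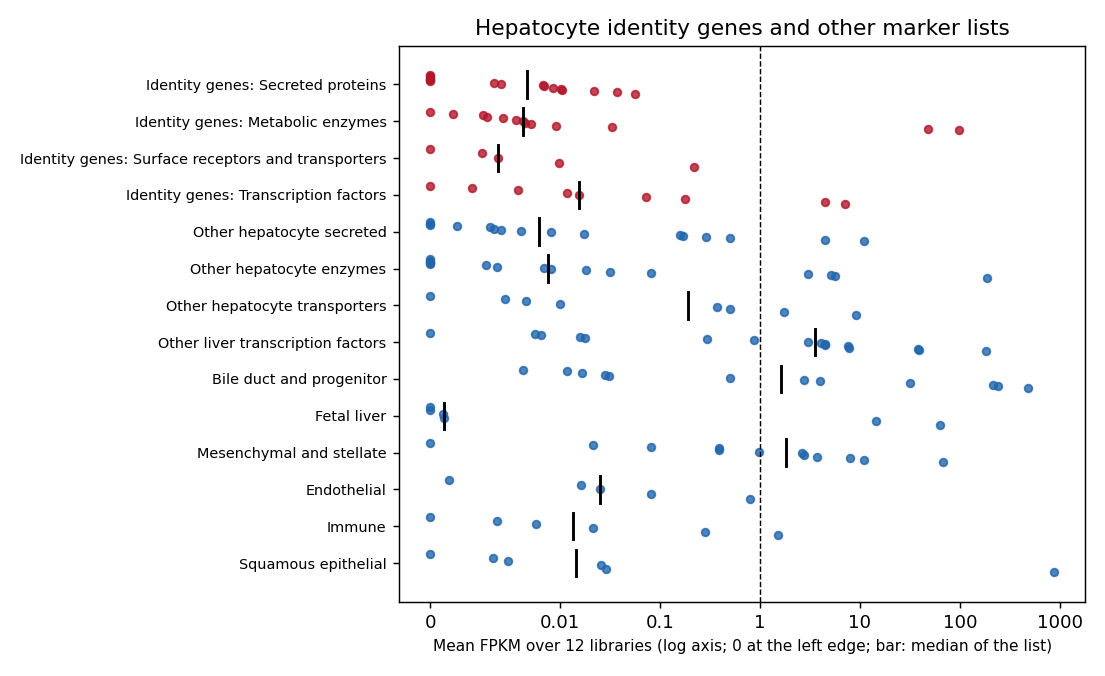
Mean level over 12 libraries, in FPKM on a log axis, of each hepatocyte identity gene by role and of each gene in 10 lists of other markers, with a bar at the median of each list. The medians of the 4 roles lie between 0.00238 and 0.0154 FPKM. In the bile duct and progenitor list KRT7, KRT8 and KRT18 lie above 200 FPKM and KRT19 at 0.0163 FPKM.

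For 29 of the 43 genes a RefSeq promoter window (GRCh38.p14) could be matched by symbol. Each window runs from 250 bases before the RefSeq transcription start to 50 after it. Letters bound by liver factors were searched on both strands: CAAAGTCCA and AGGTCAAAG for HNF4 and related receptors, TTGCGCAA for C/EBP, TGTTTAC for FOXA, and TATAAA for the TATA box. The motifs do not contain one another, and no matches overlapped in the bases shown. CAAAGTCCA was in 3 of the 29 windows, those of AHSG, CYP2C8 and CYP2B6, or 10.3%, against 0.384% of all 35116 windows. These genes had 5, 3 and 2 reads in all. Their 250 bases before the start are shown 5′ to 3′ on the gene's strand, with motif matches in capitals, because they hold a motif of liver receptors in front of genes that were nearly silent here. The AHSG bases lie at chr3:186612810-186613059, plus strand, with the match on the opposite strand from -179 to -171 relative to the start. Those of CYP2C8 lie at chr10:95069498-95069747, minus strand, with the match from -53 to -45, TATAAA from -31 to -26 and TGTTTAC from -10 to -4. Those of CYP2B6 lie at chr19:40991032-40991281, plus strand, with the match on the opposite strand from -231 to -223 and a TATA box match on the opposite strand from -60 to -55.
AHSG: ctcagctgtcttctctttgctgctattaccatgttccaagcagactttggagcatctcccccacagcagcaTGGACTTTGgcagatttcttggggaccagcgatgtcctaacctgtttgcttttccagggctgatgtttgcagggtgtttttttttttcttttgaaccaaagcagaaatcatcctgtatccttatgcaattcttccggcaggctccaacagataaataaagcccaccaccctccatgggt
CYP2C8: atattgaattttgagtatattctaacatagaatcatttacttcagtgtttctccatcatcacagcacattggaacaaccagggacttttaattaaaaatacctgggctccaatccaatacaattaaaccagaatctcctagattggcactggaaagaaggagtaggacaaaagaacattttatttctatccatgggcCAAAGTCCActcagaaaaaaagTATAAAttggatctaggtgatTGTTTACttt
CYP2B6: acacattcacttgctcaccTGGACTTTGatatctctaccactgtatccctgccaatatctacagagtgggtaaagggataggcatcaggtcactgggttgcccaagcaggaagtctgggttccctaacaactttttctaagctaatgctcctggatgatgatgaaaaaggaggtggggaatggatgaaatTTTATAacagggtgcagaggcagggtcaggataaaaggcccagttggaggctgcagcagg

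AGGTCAAAG was in none of the windows against 0.276% of all windows. TGTTTAC was in the windows of APOA2 and CYP2C8, or 6.90% against 3.42%, and TTGCGCAA was in none against 0.151%. TATAAA was in 10 windows, or 34.5% against 11.5%. These matches are a description of the letters and not of binding, and the genes were chosen as liver genes.

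The 4 genes that reached 1 FPKM had no HNF4, C/EBP or FOXA match in their windows. Most of them were rich in CpG, which was described and not tested: the windows of CEBPA, FOXA1 and HPD held 50, 34 and 32 CpG dinucleotides, against a median of 3 (range 0 to 37) in the 25 windows of genes that were not tested and a median of 14 over all windows. CPS1, the highest of the 43 genes, was the exception with 3. The bases before the starts of CPS1 and CEBPA are shown as the 2 extremes, from chr2:210593105-210593354, plus strand, and chr19:33302535-33302784, minus strand, with TATAAA from -30 to -25 of CEBPA in capitals. The RefSeq start of CPS1 lies 115673 bases inside the gene as the table draws it, and that of HPD lies 25015 bases from the table's start, so for these genes the window need not be the promoter in use. The same holds for 9 of the 25 untested genes with a window, whose RefSeq starts lie more than 1000 bases from the table's: TF at 83958, TDO2 at 48958, NR1H4 at 29652, APOH at 27110, ALB at 7173, CYP2E1 at 6957, AFP at 5083, HPX at 1630 and NR1I2 at 1617 bases. All of them are in the motif and CpG counts above, and none is among the 3 genes with CAAAGTCCA.
CPS1: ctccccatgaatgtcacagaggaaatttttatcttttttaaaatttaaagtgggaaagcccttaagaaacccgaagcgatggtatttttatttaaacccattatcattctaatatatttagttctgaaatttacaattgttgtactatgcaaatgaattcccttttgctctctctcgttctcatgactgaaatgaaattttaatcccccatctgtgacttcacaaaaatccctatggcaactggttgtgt
CEBPA: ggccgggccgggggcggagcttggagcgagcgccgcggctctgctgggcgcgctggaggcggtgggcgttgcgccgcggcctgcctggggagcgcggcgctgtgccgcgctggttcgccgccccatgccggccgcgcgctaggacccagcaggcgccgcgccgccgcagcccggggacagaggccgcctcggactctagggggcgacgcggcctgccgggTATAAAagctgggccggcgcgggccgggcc

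Palmitate was set against untreated cells to see what 4 h of a saturated fatty acid does to these genes. CPS1 fell in PA, and none of the other tested genes passed the test. CPS1 (ENSG00000021826, chromosome 2, 210477682 to 210679107) stood at 118, 139 and 147 FPKM in the control libraries and at 82.7, 63.0 and 78.6 FPKM in the PA libraries. Every PA library was below every control library, and the PA mean of 74.7 ± 10.4 FPKM (SD, n = 3) was 55.6% of the control mean of 134 ± 15.1 FPKM (SD, n = 3). The log2 change was -0.84 (SE 0.20, limma adjusted p = 0.0127). That is 1 of 4 tested genes called, against 27.6% of all genes tested in that comparison. This share moved with single libraries: it was 6.79% without control replicate 2, 8.42% without control replicate 3, 12.3%, 7.63% and 17.2% without PA replicates 1, 2 and 3, and 45.6% without PA+OA replicate 1. The call was lost without control replicate 2 (adjusted p = 0.0557), control replicate 3 (0.0558) or PA replicate 2 (0.0627), and it held in the other 9 such fits. Over all alternatives the adjusted p ranged from 0.000520 to 0.0627. A share of 1 in 4 lies near the 27.6% of all genes and is not a result about these genes.

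**Figure D3:**
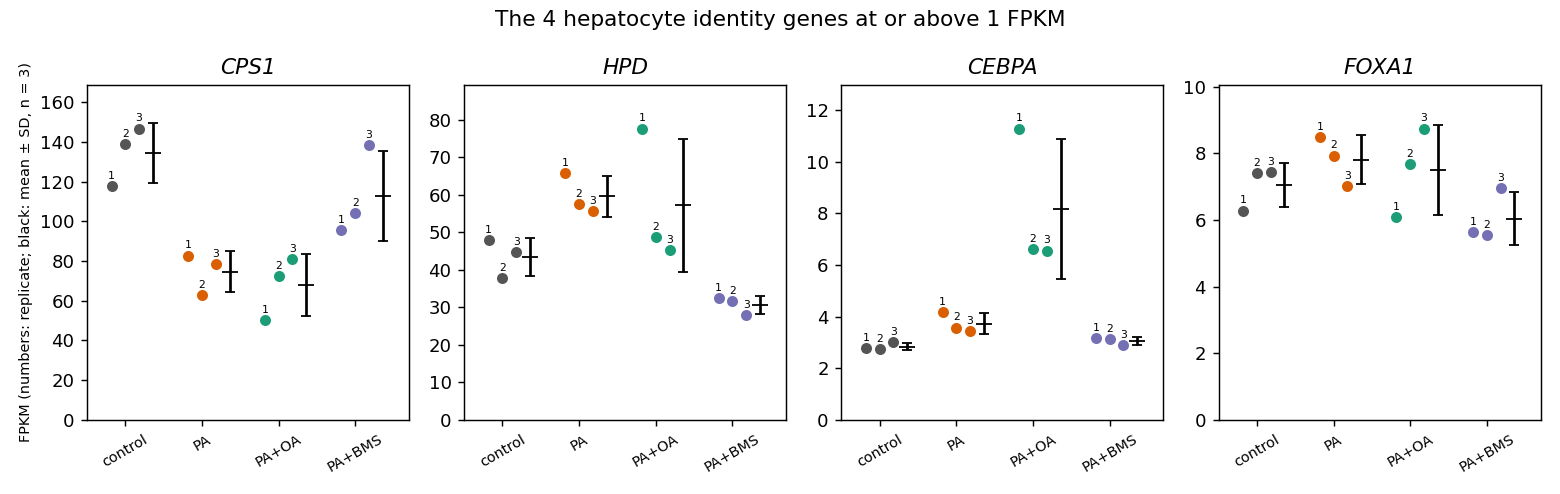
Levels of CPS1, HPD, CEBPA and FOXA1 in FPKM, on axes from 0, in the 3 libraries of each group (points) with the mean and SD (bars). CPS1 is lower in all PA and PA+OA libraries than in any control library, HPD is lowest in the 3 PA+BMS libraries, and CEBPA is highest in the 3 PA+OA libraries.

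HPD (ENSG00000158104, chromosome 12, 121839527 to 121863596) was at 47.8, 37.8 and 44.7 FPKM in control and at 65.6, 57.4 and 55.5 FPKM in PA. The groups did not overlap, and the log2 difference of 0.45 (SE 0.18) missed the threshold (limma adjusted p = 0.0787). It passed without PA+OA replicate 1, a library of neither group that widens the shared estimate of spread (adjusted p = 0.00880; range over alternatives 0.00393 to 0.596). CEBPA (ENSG00000245848, chromosome 19, 33299934 to 33302564) was at 2.77, 2.73 and 3.01 FPKM in control and at 4.18, 3.58 and 3.43 FPKM in PA, again without overlap, with a log2 difference of 0.30 (SE 0.16, limma adjusted p = 0.165). It also passed without PA+OA replicate 1 (adjusted p = 0.0181; range over alternatives 0.00960 to 0.702). FOXA1 (ENSG00000129514, chromosome 14, 37589984 to 37596059) was at 6.28, 7.41 and 7.45 FPKM in control and at 8.49, 7.94 and 7.02 FPKM in PA, and the groups overlapped. The median log2 change of the 4 genes was 0.22, beside 0.03 over all genes tested.

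The libraries differed in a trend with GC content and gene length, and the 4 genes lie at different places along it: the longest transcript of CPS1 has 43.8% GC, that of FOXA1 51.3%, of HPD 57.2% and of CEBPA 65.9%, where the median tested gene has 49.2%. With that trend taken out of each library, CPS1 was again the only one of the 4 called, against 16.1% of all genes, with a log2 change of -0.52 (SE 0.092). The differences of HPD and CEBPA came down to 0.09 and -0.06. The part of GC content and length in the deposited differences was not tested further.

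Oleate was added to palmitate in the PA+OA group, and CEBPA was the 1 of 4 tested genes that changed, against 7.91% of all genes tested. That share was 16.2% without PA+OA replicate 1, 3.96% and 4.71% without PA+OA replicates 2 and 3, and 4.00%, 4.33% and 4.99% without PA replicates 1, 2 and 3. CEBPA stood at 11.3, 6.61 and 6.56 FPKM in PA+OA, above all 3 PA libraries, and its mean of 8.15 ± 2.71 FPKM (SD, n = 3) was 219% of the PA mean of 3.73 ± 0.401 FPKM (SD, n = 3). The log2 rise was 0.92 (SE 0.16, limma adjusted p = 0.00479). PA+OA replicate 1, which stands apart, gave the highest value, and without it the rise was 0.68 and remained called. CEBPA was called in all 12 fits that left out 1 library and in all 10 other alternatives, with log2 changes from 0.68 to 1.13. With the GC and length trend removed it was again the only one called, with a change of 0.91 (SE 0.11), against 13.2% of all genes. CEBPA has a single exon, 43.4% of which is also annotated as the antisense RNAs AC008738.3 and AC008738.5, both listed with 0 reads. The strand setting of the counting is not given in the sources used here, so reads of CEBPA and of its antisense partners cannot be told apart.

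CPS1 was at 50.4, 72.3 and 80.8 FPKM in PA+OA, which overlapped PA, with a log2 difference of -0.16 (95% interval -0.58 to 0.27). HPD was at 77.6, 48.7 and 45.1 FPKM, the widest spread of any group for this gene, with a difference of -0.10 (95% interval -0.49 to 0.30). FOXA1 was at 6.08, 7.67 and 8.74 FPKM, with a difference of -0.06 (95% interval -0.36 to 0.23). The lowest CPS1, the highest HPD and the lowest FOXA1 value of the group all came from replicate 1. The median log2 change of the 4 genes was -0.08, beside 0.00 over all genes tested.

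BMS-309403 with palmitate was set against palmitate alone, and the 2 enzymes moved in opposite directions: HPD fell and CPS1 rose. HPD stood at 32.4, 31.6 and 27.8 FPKM in PA+BMS, below every library of the other 3 groups. Its mean of 30.6 ± 2.45 FPKM (SD, n = 3) was 51.5% of the PA mean of 59.5 ± 5.39 FPKM (SD, n = 3), and the log2 change was -0.94 (SE 0.18, limma adjusted p = 0.00452). HPD was called in all 12 fits that left out 1 library and in all 10 other alternatives. CPS1 stood at 95.5, 104 and 139 FPKM in PA+BMS, above every PA library, with a log2 change of 0.58 (SE 0.20, limma adjusted p = 0.0276). It was lost without PA replicate 2 (adjusted p = 0.108) or PA+BMS replicate 3 (0.111), the library that stands apart and holds the group's highest CPS1 level. These 2 calls of 4 compare with 54.5% of all genes tested, a share that came to 31.4% without PA replicate 2, to 31.5% without PA+BMS replicate 3 and, at the most, to 63.1% without PA+OA replicate 1. A share of 2 in 4 lies near that background and is not a result about these genes.

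CEBPA, at 3.17, 3.13 and 2.89 FPKM, and FOXA1, at 5.63, 5.54 and 6.96 FPKM, lay below all PA libraries in PA+BMS. Neither was called, with log2 differences of -0.22 (SE 0.16) and -0.33 (SE 0.14, limma adjusted p = 0.0581). FOXA1 passed in 3 of 12 fits that left out 1 library, with adjusted p from 0.0236 to 0.165. With the GC and length trend removed, HPD remained lower, at -0.44 (SE 0.11), CPS1 came to 0.11 and was no longer called, and CEBPA turned to a called rise of 0.36 (SE 0.11, limma adjusted p = 0.0350). Over its alternatives the adjusted p of CPS1 ranged from 0.00845 to 0.370 and that of CEBPA from 0.0350 to 0.961. In that fit 22.7% of all genes were called. The fall of HPD was thus called in both fits, the rise of CPS1 in the deposited values alone, and CEBPA lay on opposite sides of 0. The median log2 change of the 4 genes was -0.27 in the deposited values, beside -0.04 over all genes tested.

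**Figure D4:**
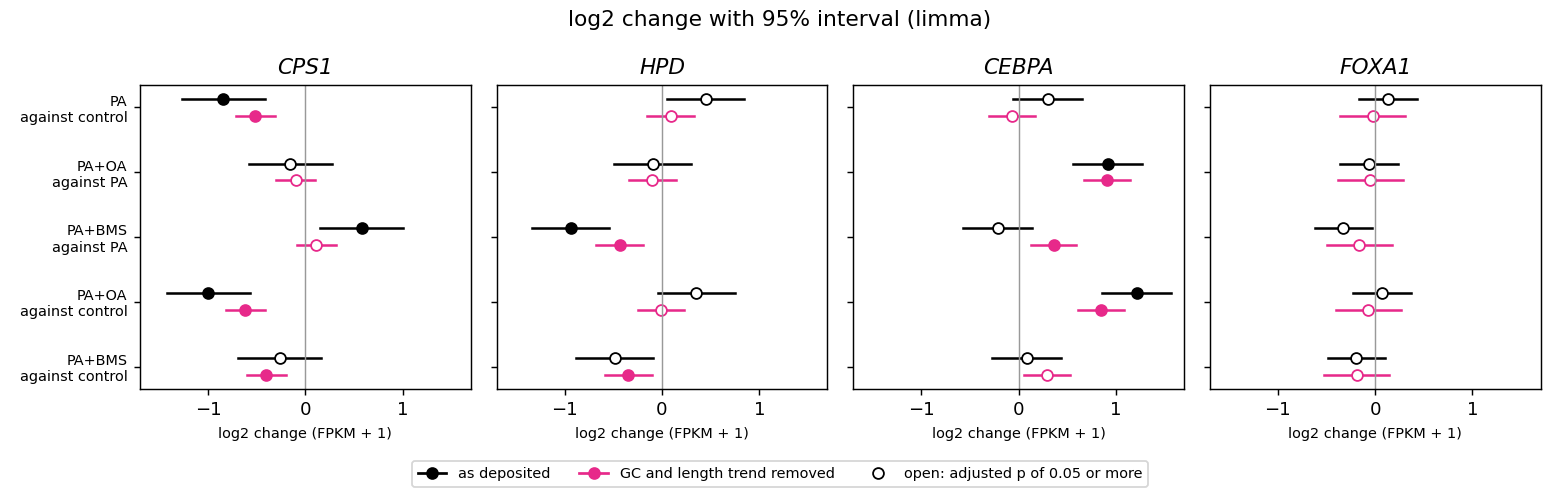
Log2 change of CPS1, HPD, CEBPA and FOXA1 with its 95% interval in 5 comparisons, from FPKM as deposited and with the GC and length trend of each library removed, with open symbols where the adjusted p was 0.05 or more. The fall of CPS1 with palmitate, the rise of CEBPA with oleate and the fall of HPD with BMS-309403 are filled in both fits, whereas CEBPA in PA+BMS against PA lies at -0.22 in one and at 0.36 in the other.

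Both palmitate groups were also compared with control. These comparisons share the control, PA+OA or PA+BMS libraries with those above, so their values are given side by side and not as support. In PA+OA against control, 2 of 4 genes were called, against 36.3% of all genes: CPS1 fell, with a log2 change of -0.998 (SE 0.20, limma adjusted p = 0.00271), and CEBPA rose, with a change of 1.22 (SE 0.16, limma adjusted p = 0.000235). The PA+OA means were 50.4% of the control mean for CPS1 and 287% for CEBPA. Both stayed called in all 12 fits that left out 1 library, while the share of all genes called ran from 21.1% without control replicate 2 and 22.5% without control replicate 3 to 42.7%. After removal of the GC and length trend the same 2 genes were called, at -0.62 and 0.85, against 37.5% of all genes. Whether 2 of 4 differs from these shares was not tested. HPD and FOXA1 overlapped between these groups and had log2 differences of 0.35 (95% interval -0.04 to 0.75) and 0.07 (95% interval -0.23 to 0.36).

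In PA+BMS against control none of the 4 was called, against 11.0% of all genes. That share was 6.49%, 6.14% and 5.50% without control replicates 1, 2 and 3, 6.47% and 6.18% without PA+BMS replicates 1 and 2, and 19.8% without PA+OA replicate 1. CPS1 overlapped control and had a log2 difference of -0.27 (95% interval -0.69 to 0.16). HPD lay below every control library, at 70.5% of the control mean, with a log2 difference of -0.49 (95% interval -0.88 to -0.09, limma adjusted p = 0.111). Before adjustment 1 of the 4, HPD, had a limma p under 0.05, as had 3105 of all 11856 genes tested. Voom on recovered reads also called 0 of the 4, against 10.5% of all genes. HPD was called without PA+OA replicate 1 (adjusted p = 0.0107; range over alternatives 0.0107 to 0.296). With the trend removed CPS1 and HPD were both called as lower, at -0.40 and -0.35, against 19.1% of all genes. CEBPA and FOXA1 had differences of 0.08 and -0.19. Because these are bulk samples, fewer cells making a transcript and less of it per cell cannot be told apart in any of these comparisons.

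The 39 genes that were not tested together had 35 to 40 reads per control library, 39 to 72 in PA, 65 to 69 in PA+OA and 20 to 67 in PA+BMS. Scaled to depth this came to 2.20 ± 0.0907, 3.02 ± 0.973, 3.73 ± 0.264 and 2.20 ± 1.13 RPM, reads scaled to the library total (SD, n = 3 each). The PA+OA libraries held more than any control library, and the other groups ranged widely. ASGR1, NR1I3 and HNF4A had the most of these reads, with 172, 127 and 109 over all libraries.

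ASGR1 (ENSG00000141505, chromosome 17, 7173431 to 7179564) stood at 0.192, 0.0754 and 0.0801 FPKM in control, at 0.208, 0.338 and 0.250 in PA, at 0.493, 0.394 and 0.197 in PA+OA, and at 0.0389, 0.270 and 0.0538 in PA+BMS. In these FPKM values all PA and PA+OA libraries were above all control libraries, from 5 to 28 reads each. The reads themselves were not apart. Control replicate 1 had 14 of 18908363 reads, PA replicate 1 had 13 of 18826443 and PA+OA replicate 3 had 14 of 18323473. HNF4A (ENSG00000101076, chromosome 20, 44355700 to 44434596) stood at 0.0773, 0.0851 and 0.148 FPKM in control, at 0.0573, 0.132 and 0 in PA, at 0.153, 0.0622 and 0.0649 in PA+OA, and at 0.0199, 0.0241 and 0.0345 in PA+BMS. The PA+BMS libraries, with 3 to 5 reads each, were below all control and PA+OA libraries. NR1I3 (ENSG00000143257, chromosome 1, 161229666 to 161238302) stood at 0.0933, 0.240 and 0.145 FPKM in control, at 0.145, 0.274 and 0.390 in PA, at 0.140, 0.172 and 0.112 in PA+OA, and at 0.206, 0.200 and 0.0152 in PA+BMS. Its groups overlapped in all 5 comparisons. A share of 20.0% of the NR1I3 exons is also annotated to TOMM40L on the other strand, which had at most 6.38 FPKM in any library, so some NR1I3 reads may not be its own.

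In a fit that kept genes of 0.1 FPKM in at least 3 libraries, with a pseudocount of 0.1, APOA2, ASGR1, HNF4A and NR1I3 were tested among 19079 genes. None was called in any of the 5 comparisons, in which 4.54% to 32.7% of all genes were. ASGR1 had log2 differences of 0.78 (SE 0.42, limma adjusted p = 0.218) in PA against control and 1.08 (SE 0.42, limma adjusted p = 0.0865) in PA+OA against control. APOA2 had 1.23 (SE 0.42, limma adjusted p = 0.0547) in PA+OA against control, resting on 7 reads in PA+OA and none in control. APOA2 passed the filter only through libraries of PA+OA (0.279 and 0.112 FPKM) and PA+BMS (0.107 FPKM). Its p-value against control is therefore not support for a difference. For HNF4A in PA+BMS against control it was -0.67 (95% interval -1.49 to 0.14). At this depth differences of these sizes could not be told from the spread between libraries.

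Other genes of the same 4 roles, from lists chosen with earlier results of these data known, were uneven too. The transcription factors among them stood higher than the 9 given above, with a median of 3.56 against 0.0154 FPKM. Of 16 other hepatocyte secreted proteins 2 were tested, the complement component C3 at 10.9 FPKM and vitronectin, VTN, at 4.47 FPKM, and PLG, F9 and CRP had no read. Of 16 other enzymes 4 were tested: ASS1 at 188 FPKM and ASL at 5.63 FPKM, both of the urea cycle, FAH, the last enzyme of tyrosine breakdown, at 5.13 FPKM, and GLUL, glutamine synthetase, at 3.05 FPKM. The urea cycle was thus uneven, with CPS1, ASS1 and ASL present while OTC had 1 read and ARG1 had 8. Tyrosine breakdown was uneven too, with HPD and FAH present while HGD, between them, had 20 reads. Of 8 other transporters ABCC2, a canalicular exporter, at 9.11 FPKM, and TFR2, an iron sensor, at 1.74 FPKM were tested. Of 16 other liver transcription factors 10 were tested, the highest being CEBPB at 185, ESRRA at 38.8, CEBPD at 38.2 and TBX3 at 7.79 FPKM. PROX1 had no read.

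In the deposited values, 3 of 4 tested other enzymes rose in PA against control, with log2 changes of 0.68 (SE 0.17) for ASS1, 0.56 for FAH and 0.53 for ASL, where CPS1, of the same cycle as ASS1 and ASL, had -0.84. Of the 2 secreted proteins C3 rose, with 0.38 (SE 0.11, limma adjusted p = 0.0238). Among the tested factors 3 of 10 rose and none fell, with 1.24 (SE 0.28) for CEBPB, 0.67 for ESRRA and 0.62 for the oxysterol receptor gene NR1H3, and ABCC2 fell by 1.05 (SE 0.18). The median log2 change was 0.55 for the 4 enzymes and -0.06 for the 10 factors, beside 0.03 over all genes tested. In all, 8 of the 18 tested genes of these 4 lists were called, beside the 27.6% of all genes given above, whose range without single libraries was 6.79% to 45.6%. Of the 18, only ABCC2 was called without control replicate 2, control replicate 3 or PA replicate 2, while 3 were called without PA replicate 1 and 5 without PA replicate 3. In PA+OA against PA no tested gene of these 4 lists was called. CEBPB, a relative of CEBPA, had a log2 difference of 0.54 (SE 0.28, limma adjusted p = 0.303) there, and whether the 2 genes differed was not tested. In PA+BMS against PA 3 of 4 other enzymes fell, with log2 changes of -0.76 for ASS1, -0.78 for ASL and -0.41 for GLUL. Both secreted proteins fell, with -1.29 for C3 and -0.84 for VTN, and ABCC2 rose by 1.25 while TFR2 fell by 0.69. Of the 10 factors 1 rose, PPARA at 0.47, and 3 fell, ESRRA at -0.80, NR1H3 at -0.60 and RXRA at -0.47. That makes 11 of 18 called, or 4 of 10 among the factors, beside 54.5% of all genes, and these shares are not results about the lists.

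Several of these calls ended when the GC and length trend was removed. In PA against control C3 was no longer called (0.16, limma adjusted p = 0.234), ASS1 was then the 1 enzyme called, at 0.32, CEBPB the 1 factor that rose, at 0.88, RXRA and TBX3 fell, at -0.31 and -0.54, and ABCC2 kept its fall, at -0.81. In PA+OA against PA the factor HHEX was called, at -0.52. In PA+BMS against PA the calls that held were ASS1 at -0.28, GLUL at -0.83, C3 at -1.03 and ABCC2 at 0.88, and none of the factors was called. With both libraries that stand apart left out, PPARA was not tested, and the share of all genes called was 57.6% for palmitate against control, 25.7% for oleate added to palmitate and 56.1% for BMS-309403 with palmitate against palmitate. TFR2 then also rose in PA against control, while ONECUT2 and TBX3 fell. In PA+OA against PA, GATA6 and TBX3 rose and ESRRA, HHEX and RXRA fell, where none had been called. In PA+BMS against PA, FAH and TBX3 were called as lower in addition.

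Lists of markers of other cell types give the setting of these levels, though not every gene in them is particular to 1 cell type. The bile duct and progenitor list had 6 of 12 genes tested, led by the keratins KRT7 at 485, KRT8 at 242 and KRT18 at 214 FPKM and by CD24 at 31.5 FPKM. KRT8 and KRT18 are not particular to bile duct, and KRT19 had 8 reads, EPCAM 16 and SPP1 2. Of 6 fetal liver genes, H19 at 63.2 and PEG10 at 14.5 FPKM were tested, and GPC3 and DLK1, like AFP, had no read. The mesenchymal and stellate list had 7 of 12 genes tested, with VIM at 67.9, COL1A1 at 11.0, TAGLN at 7.91 and LUM at 3.72 FPKM. The immune and endothelial lists had 1 tested gene each, CSF1R at 1.5 and CDH5 at 0.785 FPKM, while PTPRC had 5 reads. KRT17 was the tested gene of 6 squamous epithelial markers, at 885 FPKM, and its near-identical copies make that level uncertain. Reads of the defining hepatocyte markers ALB, APOH, FGB and HP were not found in any of the 12 libraries of the line labelled as hepatic, whereas the hepatocyte enzymes CPS1, HPD and ASS1 were present at 97.4, 47.7 and 188 FPKM.

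The summed level of the bile duct and progenitor list came mostly from KRT7, KRT8 and KRT18. It was 934 to 1106 FPKM in control, 1063 to 1325 in PA, 986 to 1764 in PA+OA and 404 to 454 in PA+BMS. The sum was thus lowest in PA+BMS, as HPD was, but not every gene of the list followed it. CD24 had a log2 difference of -0.06 in PA+BMS against PA. SOX9, under 1 FPKM in every library, averaged 0.592 FPKM in PA+BMS and 0.453 in control. In PA+BMS against PA 5 of the list's 6 tested genes fell, KRT7 with a log2 change of -1.88 (SE 0.21), beside 54.5% of all genes called, and with the trend removed 4 did, beside 22.7%. Without the 2 libraries that stand apart the same 5 fell. The part of such markers in the values of HPD, CPS1 and CEBPA was not tested. The mesenchymal list summed to 103 to 111 FPKM in control, 100 to 104 in PA, 88.9 to 93.0 in PA+OA and 88.3 to 92.5 in PA+BMS.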

How the data were processed

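RNA of 12 HepaRG libraries was measured by poly(A) selection and 150-base paired reads, per the labels' protocols. HISAT2 2.0.5, featureCounts 1.5.0-p3 and CASAVA were used, in roles not stated, per the submitters' processing notes. Build, annotation and strandedness are not given in the sources, but identifiers, symbols, starts and ends of all 58735 genes equalled GENCODE 29 on GRCh38.

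The authors deposited FPKM per gene and library, with no step of its making described. Each value times gene length was a whole multiple of 1 step (100% of values, tolerance 0.001), which gave whole reads and so the depth per library. The hepatocyte genes and the other lists were chosen with earlier results of these data known, and every one of the 43 genes is accounted for: tested genes by library, those of at least 0.1 FPKM in a group's mean by library or range, the rest by read totals. Of each other list the 4 highest tested genes and up to 4 without reads were named. OTC, ARG1, HGD, KRT19, EPCAM, SPP1, SOX9, PTPRC, NR1H3 and the changes printed for lists were picked out with their values known.

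A gene was tested where 3 or more libraries reached 1 FPKM, as log2(FPKM + 1) with limma 3.58.1 in R 4.3.3. The model had a coefficient per group and used every library (eBayes with trend, two-sided, 8 residual degrees of freedom), with Benjamini-Hochberg adjustment over all 11856 genes within each of 5 comparisons and calls at 0.05. Fold changes on this scale understate changes of low genes. Genes with a transcript sequence (11848) were refitted after removal of natural splines of GC content and length (5 degrees of freedom each) per library. Other alternatives were a pseudocount of 0.1, other filters, median-of-ratios scaling, equal library totals, voom on recovered reads, the 2 groups alone, a replicate block, and left-out libraries. The procedure was tested on simulated data with the same spread for every gene and no library standing apart. That test therefore does not cover the spread between the libraries used here. Replicates differed beyond sampling noise in every pair, so none was counted as a repeat. Figures used Python 3.11.15, pandas 2.3.3 and matplotlib 3.10.9. One planned motif search and one gene of the other lists are not reported here.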

Additional observations from a re-analysis of the deposited data

How the results depend on the processing

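Of 440 values of the 4 tested genes under alternatives, 397 kept their direction and their side of the threshold, 7 lost the call, 20 gained one and 16 changed direction. Of these 16, CEBPA in PA+BMS against PA with the GC and length trend removed (log2 change 0.36) was the only one called. With that trend removed the others were CEBPA at -0.065 and FOXA1 at -0.024 in PA against control, and HPD at -0.0092 and FOXA1 at -0.072 in PA+OA against control. FOXA1 was at -0.030 in PA against control with equal totals and -0.029 with voom, and at -0.049 and -0.058 in PA+OA against control. In PA+OA against PA, with both libraries that stand apart left out, CPS1 was at 0.042 and FOXA1 at 0.064. Leaving out 1 library at a time, CPS1 ranged there from -0.29 to 0.042, HPD from -0.33 to 0.050 and FOXA1 from -0.17 to 0.064, and FOXA1 in PA+OA against control from -0.035 to 0.20. Genes called, leaving out 1 library, ranged from 0 to 3 in PA against control, 1 to 4 in PA+BMS against PA and 0 to 1 in PA+BMS against control. The share of all genes called ranged in these fits from 6.79% to 45.6%, from 31.4% to 63.1% and from 5.50% to 19.8%. In PA against control 3 were called with the 2 groups alone, where 49.8% of all genes were, and 3 without both libraries that stand apart, where 57.6% were. In PA+BMS against PA 1 was called with no filter, and in PA+BMS against control 2 with the trend removed, 1 with the 2 groups alone and 1 without both libraries. The cause of these moves was not tested. At 0.1 FPKM 8 genes were detected, 1 secreted, 1 transporter and 4 factors among them.

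Replicate numbers paired the libraries in part, and not over all 4 groups. Same-numbered libraries correlated in their deviations from group means at -0.28 to 0.56, over 0.1 in 9 of 18 pairs. Differently numbered libraries correlated at -0.54 to 0.40, and 9 of 12 libraries correlated best with their own number. In control and PA+OA all 3 pairs were over 0.1 (0.16 to 0.49). There the replicate block called the same 2 genes, CPS1 and CEBPA, against 44.2% of all genes. Under the block 2 genes were called in PA against control, against 39.2% of all genes, with HPD gained (0.45, limma adjusted p = 0.0293). In PA+BMS against control 1 was called, HPD (-0.49, limma adjusted p = 0.0423), against 14.4% of all genes. FOXA1 was gained in PA+BMS against PA (-0.33, limma adjusted p = 0.0482), where 59.7% of all genes were called.

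Depth limits the 39 untested genes: 29 of the 43 never had more than 3 reads in a library.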
